A study of Mus musculus with 16 samples.

Results

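The H3K27me3 peaks on mouse chromosome 17 were taken from the peak lists of 8 ChIP libraries, 1 list per library, by keeping every peak whose chromosome column named chromosome 17. They numbered 6205 of the 106385 peaks in all 8 lists. Merging chromosome 17 peaks that overlapped by at least 1 base gave 3095 regions, of 61441 over the genome, which covered 3.48 Mb of the 60.3 Mb covered on all chromosomes. The members were chosen by position alone, but chromosome 17 was singled out with results of these lists already known, so its density is described and not tested.

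The libraries came from CCN6KOT cells, cells grown from a mouse breast tumour that lacked CCN6 and labelled as a spindle metaplastic breast cancer. In the control group, labelled PPGS, the cells received the control lentivirus, and in the dnTCF4 group they received a lentivirus with DNTCF4, which the series' design text calls a dominant negative construct of the beta-catenin pathway. All libraries of both groups therefore carried the CCN6 knockout, a lentiviral transduction and puromycin selection. Each group had 4 H3K27me3 libraries, numbered 1 to 4, and the 8 IgG libraries of the series were not analysed here. The question of the study, per its design text, was how EZH2 shapes chromatin in these tumours. Whether the 4 libraries of a group were grown as separate cultures is not stated in the labels, and the p-values below therefore measure only the scatter of these libraries, part of which may be technical. The labels describe the line both as primary cells and as a cell line, and they state neither the number of tumours or clones behind it nor the promoter driving DNTCF4. Peak lists measure no transcript, so the labelled cell type could not be checked against expressed markers.

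H3K27me3 is trimethylation of lysine 27 of histone H3, written by EZH2, the catalytic subunit of Polycomb repressive complex 2. It forms broad domains over silent developmental genes and over wide stretches between genes, and a promoter rich in CpG can carry it when its gene is silent and is usually free of it when the gene is active. TCF4 is a DNA-binding partner of beta-catenin at Wnt target genes, and a dominant negative form blocks that output. Mouse chromosome 17 holds the major histocompatibility complex (H2), clusters of olfactory and vomeronasal receptor genes, the imprinted cluster around Igf2r, and developmental regulators such as T, Nkx2-5, Six2 and Six3.

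The 200 bases before the annotated start of 6 genes are printed because they show starts that peaks left uncovered and starts that peaks covered. They are RefSeq promoter sequences of build GRCm38.p6, 5′ to 3′ on the gene's strand, with each CG in capitals.
Tmem178: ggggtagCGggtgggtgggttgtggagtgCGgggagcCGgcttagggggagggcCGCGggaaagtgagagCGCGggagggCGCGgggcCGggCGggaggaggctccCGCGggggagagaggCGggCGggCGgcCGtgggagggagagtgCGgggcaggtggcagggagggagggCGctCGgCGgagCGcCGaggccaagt
Enpp4: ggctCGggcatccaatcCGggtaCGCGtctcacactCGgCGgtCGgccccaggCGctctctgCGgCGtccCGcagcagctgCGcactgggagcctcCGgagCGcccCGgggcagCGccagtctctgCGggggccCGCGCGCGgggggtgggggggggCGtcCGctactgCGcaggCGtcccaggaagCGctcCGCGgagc
Ttbk1: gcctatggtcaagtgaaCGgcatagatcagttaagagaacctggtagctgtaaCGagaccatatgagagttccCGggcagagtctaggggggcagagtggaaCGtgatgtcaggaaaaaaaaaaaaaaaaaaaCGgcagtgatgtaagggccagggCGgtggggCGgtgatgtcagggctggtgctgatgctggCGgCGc
Nkx2-5: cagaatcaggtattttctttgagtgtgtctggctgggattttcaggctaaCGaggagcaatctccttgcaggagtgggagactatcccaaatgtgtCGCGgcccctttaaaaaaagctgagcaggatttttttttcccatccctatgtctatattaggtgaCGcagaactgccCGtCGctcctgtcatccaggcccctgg
H2-T3: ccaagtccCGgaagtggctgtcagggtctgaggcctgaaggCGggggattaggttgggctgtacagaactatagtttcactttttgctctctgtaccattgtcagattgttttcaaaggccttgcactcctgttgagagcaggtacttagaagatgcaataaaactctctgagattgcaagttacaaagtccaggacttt
Vmn2r90: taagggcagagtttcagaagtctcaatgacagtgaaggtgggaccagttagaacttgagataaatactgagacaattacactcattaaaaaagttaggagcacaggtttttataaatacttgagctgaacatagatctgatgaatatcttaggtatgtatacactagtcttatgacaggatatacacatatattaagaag

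The Tmem178 sequence lies at chr17:80944432-80944631 on the plus strand and holds 23 CG, and the Enpp4 sequence lies at chr17:44105810-44106009 on the minus strand and holds 28. No library had a peak base inside either of them, although both genes carried peaks close by. Ttbk1 (chr17:46487676-46487875, minus strand, 9 CG) had 21 bases covered in the library dnTCF4 1 and none in the other 7 libraries. Nkx2-5 (chr17:26841566-26841765, minus strand, 6 CG) had none covered in any, but its printed bases lie inside the annotated gene (chr17:26838664-26844988). A peak of 1 control library entered its longer promoter of 300 bases. The gene's 5′ end lies in the region chr17:26842723-26849381, which was in 2 control and 3 dnTCF4 libraries. The H2-T3 sequence (chr17:36190152-36190351, minus strand, 2 CG) was covered over all 200 bases in control 3, control 4 and dnTCF4 3 and over 165 bases in control 1. The Vmn2r90 sequence (chr17:17703741-17703940, plus strand) holds no CG and was covered over 200 bases in control 3 and 67 bases in control 4. These 6 were taken from genes named below by a stated rule and are examples of a pattern over all starts given further on.

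H3K27me3 was denser on chromosome 17 than over the genome as a whole in each of the 8 libraries. The chromosome makes up 3.61% of the annotated length and held between 5.71% and 11.0% of the length covered by peaks. The lists differed widely in length. Control libraries 1 to 4 listed 53, 70, 2699 and 1434 peaks on the chromosome, and dnTCF4 libraries 1 to 4 listed 1319, 20, 438 and 172. These peaks covered 0.0266, 0.0310, 3.01 and 1.16 Mb in the control libraries and 1.11, 0.0102, 0.261 and 0.0750 Mb in the dnTCF4 libraries. Both groups hold long and short lists, and no read depth is given in the files, so values are compared below as shares within a library.

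Density is the share of a library's covered length that lies on a chromosome, divided by that chromosome's share of the annotated genome length. On chromosome 17 it was 3.05, 2.15, 1.58 and 1.97 in control libraries 1 to 4. In dnTCF4 libraries 1 to 4 it was 1.85, 2.2, 2.45 and 2.41. The chromosome ranked 3 or 4 of 20 in each library. Ahead of it stood chromosome 15 in all 8 libraries and, depending on the library, chromosomes 2, 9 and 19. In the short lists chromosome 9 took a large share, with a density of 14.1 in dnTCF4 2. With chromosome 9 left out, chromosome 17 ranked 2 of 19 in control 1, control 2 and dnTCF4 2, and its density there was 5.10, 3.03 and 6.33.

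**Figure D1:**
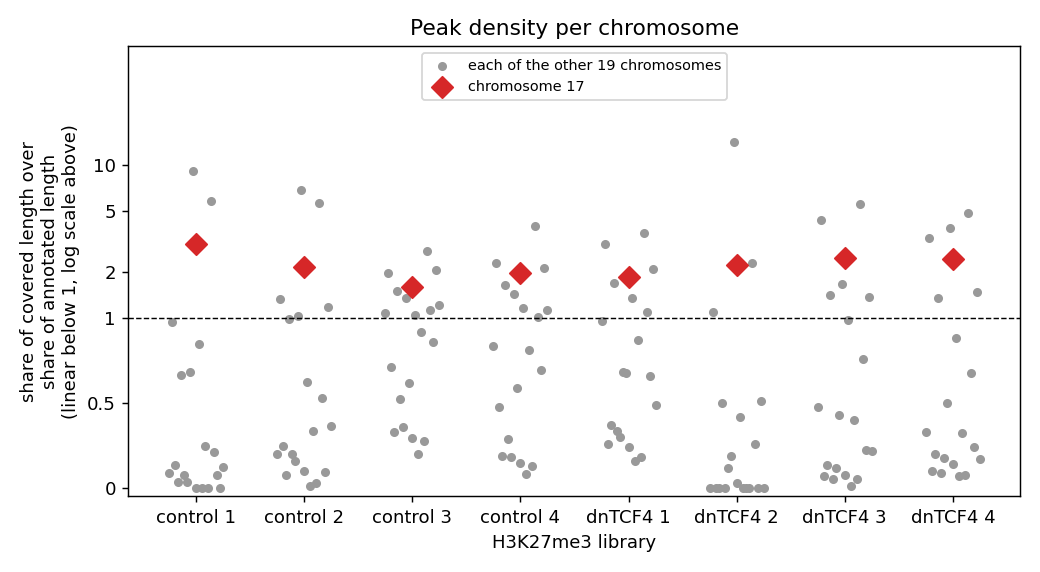
Density of H3K27me3 by chromosome in the 8 libraries, as the share of covered length over the share of annotated length, with chromosome 17 marked apart from the other chromosomes. Chromosome 17 lies between 1.58 and 3.05, above 1 in every library, and chromosome 15 lies above it in all 8.

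An estimate of the peak caller's local background at called peaks was also higher on chromosome 17. It was derived from each peak's fold and p-value in the 3 longest lists, in fragments per position. The estimate treats both values as those of a single position, and the background itself was not measured. Its median was 2.43 on chromosome 17 against 2.21 on the other chromosomes in control 3, 2.01 against 1.85 in control 4, and 1.38 against 1.28 in dnTCF4 1. Values under 1 were not solved for, and in dnTCF4 1 only 82.9% of peaks gave an estimate. Both medians of dnTCF4 1 therefore leave out its lowest values, unlike those of control 3 and control 4, where 100% of peaks gave one. Chromosome 17 was thus 1.10, 1.09 and 1.07 times the others. It ranked 3, 2 and 4 of 20 by this background, and chromosome 15 ranked highest in all 3 lists. Its part in the density was not tested.

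Along the chromosome the mark was concentrated between 70 and 90 Mb, a gene-poor stretch chosen after its values were seen. This stretch is 21.1% of the annotated length and has 112 of the 1059 protein-coding genes (10.6%), and it held 40.6% of the merged length. Per library it held 64.2%, 60.5%, 40.2% and 48.0% of the covered length on the chromosome in control 1 to 4. The dnTCF4 libraries 1 to 4 gave 41.7%, 50.4%, 55.8% and 56.5%. Every library exceeded the stretch's share of length, and the 2 groups overlapped.

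A second concentration lay between 25 and 40 Mb, which holds the H2 complex and is gene-rich. With 15.8% of the length and 421 genes (39.8%), this stretch held 25.5% of the merged length. The libraries other than dnTCF4 2 put between 21.8% and 27.8% of their covered length there, and dnTCF4 2, with 20 peaks on the chromosome, put 44.0%. The bins of 5 Mb ranged from 29.0 kb of merged length at 50 to 55 Mb to 525 kb at 70 to 75 Mb. Over the 19 bins the merged length and the number of genes had a Spearman's rho of 0.45, which is a description of neighbouring stretches of 1 chromosome and not a test.

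**Figure D2:**
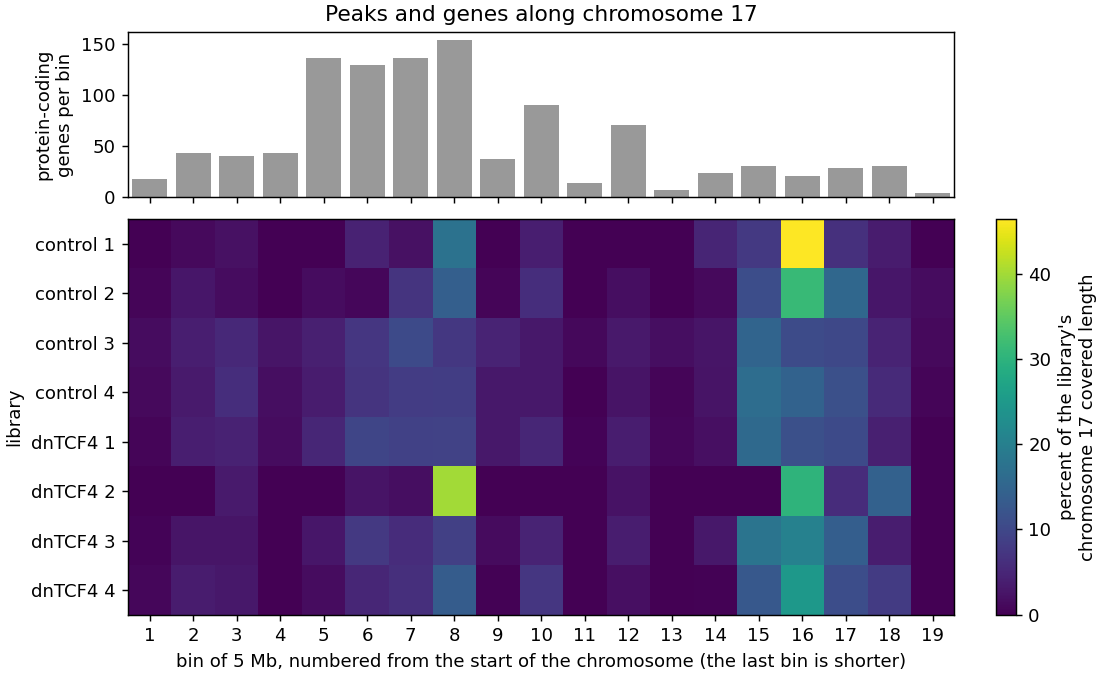
H3K27me3 along chromosome 17 in bins of 5 Mb, as the percent of each library's covered length on the chromosome, with the number of protein-coding genes per bin. The bins from 70 to 85 Mb stand high in most libraries, and those from 25 to 40 Mb, a gene-rich stretch, form a second rise. In dnTCF4 2 the highest bin is that from 35 to 40 Mb (39.9%), and the bin from 70 to 75 Mb holds 0%.

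The widest region of the chromosome sat in a block of 12 regions at chr17:79897334-80015839, found by chaining regions at most 10 kb apart outwards from it. The block spans 119 kb between Atl2, an atlastin GTPase that shapes the endoplasmic reticulum, and Hnrnpll, an RNA-binding splicing regulator. Peaks of all libraries together covered 102 kb of it. No protein-coding gene overlaps it, and the annotation places there the long non-coding RNA gene Gm41625 and the pseudogene Gm6552. Control 1 to 4 covered 10.8, 8.63, 96.8 and 73.6 kb of the block, and dnTCF4 1 to 4 covered 73.5, 3.36, 36.1 and 14.2 kb. In the short lists the block was much of what was listed: it held 40.5% of the covered length on the chromosome in control 1, 27.8% in control 2 and 32.8% in dnTCF4 2. It held 3.22% in control 3, 6.35% in control 4, 6.61% in dnTCF4 1, 13.8% in dnTCF4 3 and 18.9% in dnTCF4 4.

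Leaving the block out lowered the density of the chromosome most in the short lists and kept its rank. The density without it was 1.90, 1.59, 1.54 and 1.86 in control 1 to 4 and 1.74, 1.52, 2.14 and 1.99 in dnTCF4 1 to 4. The ranks stayed at 3, 3, 4 and 4 and at 4, 3, 3 and 4. The stretch from 70 to 90 Mb then held between 26.2% (dnTCF4 2) and 48.7% (dnTCF4 3) of the covered length.

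Peaks on chromosome 17 were in most libraries a little wider than elsewhere, and their enrichment was close to that elsewhere. The median width in control 1 to 4 was 348, 307, 668 and 521.5 bp, against 295, 321, 592 and 468 bp on the other chromosomes. In dnTCF4 1 to 4 it was 520, 301.5, 423.5 and 325.5 bp, against 482, 316, 398 and 306 bp. Control 2 and dnTCF4 2, with 70 and 20 peaks on the chromosome, were the 2 libraries in which chromosome 17 had the lower median. The widest single peaks, 27567 bp in control 3, 22688 bp in control 4 and 21016 bp in dnTCF4 1, came from long lists. Peaks of 2 kb or more made up 14.2% of the list on chromosome 17 in control 3 against 11.1% elsewhere, 7.32% against 5.25% in control 4 and 8.34% against 7.09% in dnTCF4 1. The 5 shorter lists went the other way, from 0% against 4.83% in control 1 to 5% against 6.43% in dnTCF4 2.

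The fold enrichment is the authors' value for each peak and was used only within its list. Its median on chromosome 17 in control 1 to 4 was 4.51, 4.56, 3.01 and 3.36, against 4.47, 4.59, 3.01 and 3.39 elsewhere. In dnTCF4 1 to 4 it was 3.52, 4.99, 4.06 and 4.53, against 3.49, 4.70, 4.05 and 4.47. The chromosome thus had more peaks for its length and, in the long lists, more wide ones, at nearly the same fold per peak. The peak of highest fold on the chromosome was in the block in control 1 (chr17:79935172-79936000, fold 6.30) and control 2 (chr17:80010292-80010911, fold 6.18). In control 3 the peak of highest fold lay in Dnah8, an axonemal dynein gene (chr17:30684948-30686564, fold 5.19). Short peaks led some other lists at shared places: one 42.8 kb from Luc7l led dnTCF4 3 (375 bp, fold 6.95), and peaks 3.55 and 3.6 kb from BC051142 led control 4 (507 bp, fold 6.23) and dnTCF4 4 (364 bp, fold 7.20). A peak 8.44 kb from Tmem247 led dnTCF4 1 with a fold of 6.09, and a peak of 169 bp in Tcp10c led dnTCF4 2 with 6.12.

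Most regions were seen in a single library, yet regions shared by several libraries were more frequent on chromosome 17 than over the genome. Of the 3095 regions, 1784 (57.6%) came from 1 library, and 1378 (44.5%) from control 3 alone, against 52.6% from control 3 alone over the genome. In at least 4 libraries there were 303 regions, 9.79% against 5.73% over all chromosomes. The share in at least 6 libraries was 1.62% (50 regions) against 0.719%, and the share in all 8 was 0.194% (6 regions) against 0.0879%. Peaks from both groups met in 957 regions, 30.9% against 25.4%. Chromosome 17 is also denser in each list, and the part of density in this sharing was not tested.

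The short lists were nested in the longest one. All 53 chromosome 17 peaks of control 1, all 70 of control 2 and all 20 of dnTCF4 2 overlapped a peak of control 3. The same was true of 1195 of 1434 peaks (83.3%) in control 4, 1056 of 1319 (80.1%) in dnTCF4 1, 93.6% in dnTCF4 3 and 96.5% in dnTCF4 4. On the other chromosomes the corresponding shares for these 7 lists ran from 79.0% to 98.7%.

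Shared regions were wide. The median width of merged regions rose from 394.5 bp in 1 library through 938 bp in 2 and 2020 bp in 4 to 8099.5 bp in all 8, although a merged region also grows as more peaks join it. The widest region, chr17:79899504-79932357, is 32854 bp long and begins 3.3 kb from Atl2. Control 1 to 4 covered 3796, 5149, 30575 and 29662 bp of it, and dnTCF4 1 to 4 covered 28607, 1718, 16898 and 5611 bp. The long lists of either group filled most of it, and the short lists held pieces of it. Next to it, chr17:79933901-79957093 (23193 bp) and chr17:79968895-79981879 (12985 bp) were also in all 8 libraries and belong to the same block.

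The other 3 regions in all 8 libraries lie between genes elsewhere. One is at chr17:86930808-86934021, 8.44 kb from Tmem247, and the others are inside the H2 complex at chr17:35292649-35295371, 25.2 kb from H2-D1, and at chr17:36202970-36205089, 12.8 kb from H2-T3. In the last, coverage was 534, 507, 2120 and 893 bp in control 1 to 4 and 1012, 277, 748 and 698 bp in dnTCF4 1 to 4. H2 genes have near-identical copies, and the sources used here do not say how reads that fit several copies were placed, so peaks there are uncertain as to which copy they mark.

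Regions on chromosome 17 lay mostly outside genes. Between genes, more than 2 kb from any protein-coding gene, were 1881 regions (60.8%), and 872 (28.2%) were inside a gene away from its ends. Another 179 regions (5.78%) were in a gene and within 2 kb of an end, and 163 (5.27%) were outside but within 2 kb of one. By length, 31.9% of the merged regions lay in protein-coding genes, which take up 40.7% of the chromosome, while over all chromosomes the values were 35.4% and 39.1%. Windows around gene ends held 9.25% of the merged length on 7.32% of the chromosome. Among regions in at least 4 libraries, the share in a gene near an end was 13.9% and the share outside but near an end was 10.2%, both above those of all regions, and these regions are also wider.

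Few promoters were covered by a peak, and coverage near gene starts was lower at CpG-rich than at CpG-poor promoters. RefSeq promoters, 250 bases before to 50 after the start, were available for 879 of the 1059 genes, and the dinucleotide CG, which reads the same on both strands, was counted in these 300 bases. At least 10 CG were present in 509 of them (57.9%), the same percentage as over all 17274 promoters matched. Around these 509 starts the merged regions covered 0.824% of the 1 kb centred on the start, against 6.34% of the stretch 5 to 10 kb before and 2.33% of that 5 to 10 kb after. Around the 370 starts with fewer CG they covered 5.64%, 6.79% and 6.22%. Finer steps of 0.5 kb showed a dip at these starts too, from 9.54% centred 1.25 kb before the start to 4.80% centred 0.25 kb after it. At CpG-rich starts the same steps gave 4.45% and 0.508%. Coverage 5 to 10 kb before the start was 6.34% and 6.79% in the 2 classes.

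The single long lists gave the following values. At CpG-rich starts control 3 covered 0.702% of the 1 kb around the start against 5.21% at 5 to 10 kb before, control 4 covered 0.235% against 2.14%, and dnTCF4 1 covered 0.604% against 2.94%. At CpG-poor starts control 3 covered 5.06% against 5.77% and control 4 covered 1.71% against 2.04%, while dnTCF4 1 covered 1.26% against 2.56%, a deeper fall than in the other 2 lists. Elsewhere in the genome the merged regions covered 0.433% around and 4.69% before 9492 CpG-rich starts, and 3.03% and 4.19% at 6903 CpG-poor starts. Coverage around the start was thus lower than before it in both classes there as well, and each value was higher on chromosome 17. Read from the promoters themselves, the 846 that no library covered had a median of 13.5 CG, the 31 covered in 1 to 3 libraries had 3, and the 2 covered in at least 4 libraries had 2. Of the uncovered ones, 59.5% had at least 10 CG, against 19.4% (6 promoters) of those covered in 1 to 3 libraries. These CG counts describe the letters only. The number of fragments a CpG-rich stretch can give in such libraries was not measured here, and its part in the lower coverage was not tested.

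**Figure D3:**
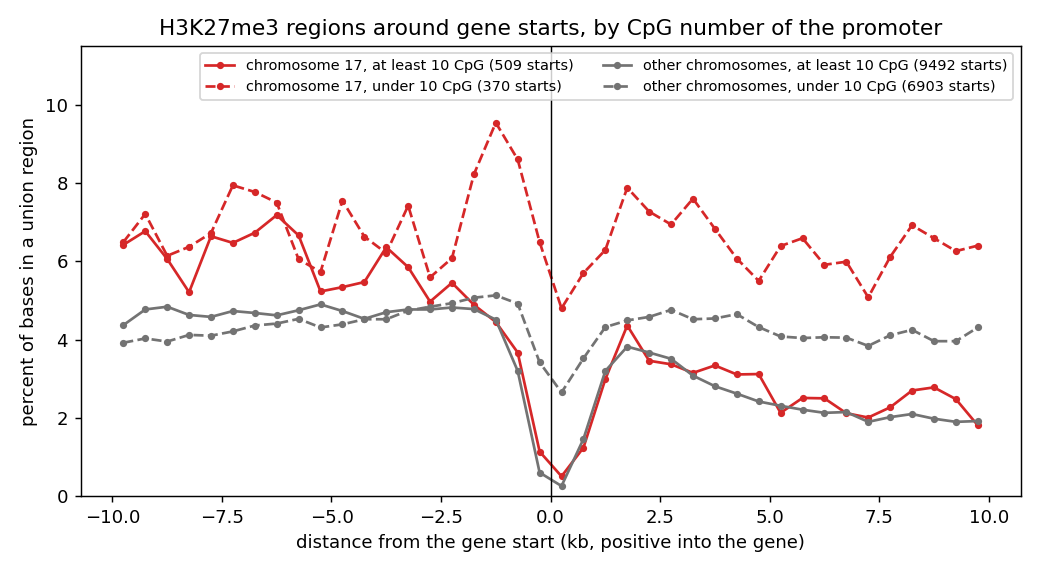
Percent of bases covered by the merged regions in steps of 0.5 kb around annotated gene starts on chromosome 17 and on the other chromosomes, split at 10 CG per promoter. On chromosome 17 both curves are lowest in the step centred 0.25 kb after the start. The curve of CpG-rich starts falls to 0.508% there, and that of CpG-poor starts to 4.80%.

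The printed promoters are single examples of these starts. Tmem178, a membrane protein of the endoplasmic reticulum, had its start 0.471 to 5.89 kb from the nearest peak in each of the 8 libraries, and no peak entered the 200 bases printed. In Enpp4, an ectonucleotide pyrophosphatase, the nearest peak was 0.401, 0.767, 0.401, 0.972 and 0.891 kb from the start in control 3, control 4, dnTCF4 1, dnTCF4 3 and dnTCF4 4. In the short lists of control 1, control 2 and dnTCF4 2 the nearest peak was 193 kb away or farther. H2-T3 and Vmn2r90, with 2 and 1 CG in their 300 bases, had peaks over the start itself in control 3 and control 4.

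Genes were called marked in a library when a peak lay within 2 kb of either annotated end, since the gene table gives no strand. A call can rest on a small overlap. For Tmem178 in dnTCF4 2 it was 0.65% of the better covered window of 4 kb at its ends. In control 1 to 4, 6, 5, 184 and 117 of the 1059 chromosome 17 genes were marked. These are 0.567%, 0.472%, 17.4% and 11.0%, against 0.296%, 0.356%, 14.5% and 7.66% of all 21631 genes. In dnTCF4 1 to 4, 151, 2, 57 and 19 were marked, or 14.3%, 0.189%, 5.38% and 1.79%, against 9.29%, 0.0925%, 2.83% and 1.07%. In any library 204 genes were marked (19.3% against 15.8%), 54 were marked in at least 4 (5.10% against 2.58%), and 6 were marked in at least 6 (0.567% against 0.328%). In at least 2 libraries of each group, 53 genes were marked (5% against 2.51%).

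Of the genes marked in the most libraries, Ttbk1, a neuronal kinase of tau and tubulin (chr17:46442448-46487675), carried the mark in all 4 control libraries and in 3 dnTCF4 libraries. The better covered window of 4 kb at its ends was covered to 4.12%, 8.35%, 72.7% and 67.5% in control 1 to 4 and to 73.4%, 0%, 46.6% and 21.9% in dnTCF4 1 to 4. Coverage was high in the long lists of both groups and low in the short ones. The class I gene H2-Q1 of the Q region had peaks in the same 7 libraries, and Tmem178 (chr17:80944632-81001816) in all but control 1. H2-T3, which encodes a class I molecule outside the classical set, and Six3 were each marked in 3 libraries of either group. Zfp959, a zinc finger gene, was marked in 2 control and all 4 dnTCF4 libraries. No library had a peak inside Zfp959 or within 2 kb of its listed RefSeq starts. Enpp4, Nkx2-5, Vit, which encodes the matrix protein vitrin, and 2410137M14Rik were each marked in 2 control and 3 dnTCF4 libraries.

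**Figure D4:**
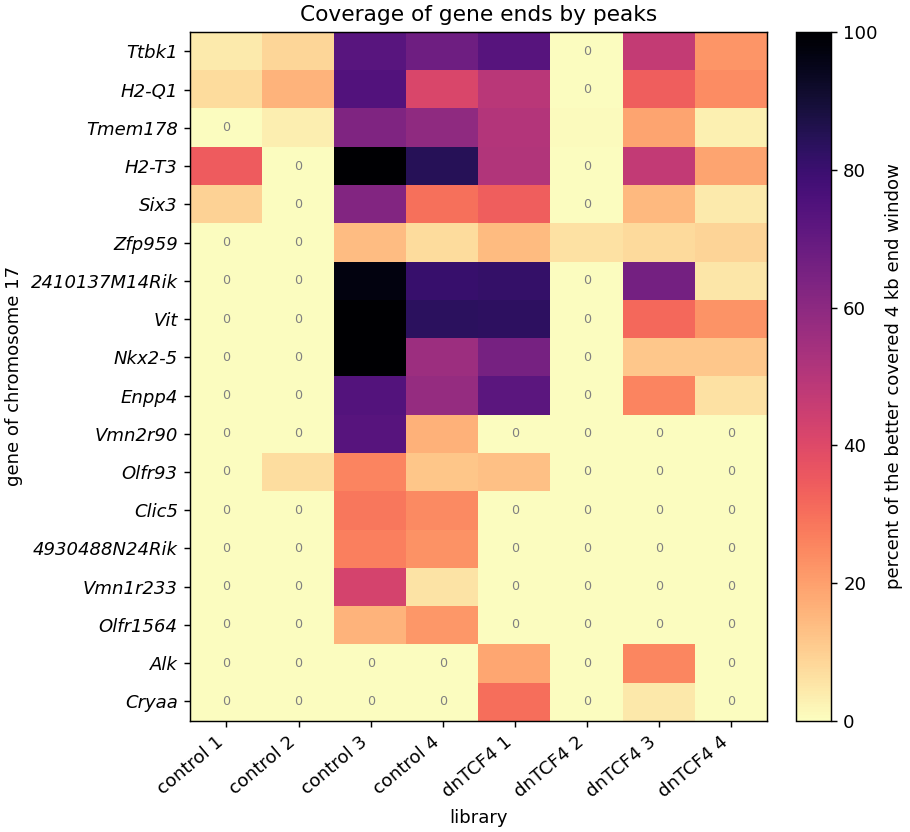
Percent of the better covered window of 4 kb at a gene end that peaks covered, for the chromosome 17 genes named by the stated rule, in each of the 8 libraries. Coverage varies by gene in control 3, control 4 and dnTCF4 1. At Ttbk1 it is 72.7%, 67.5% and 73.4% in these 3 lists. Alk and Cryaa have 0% in control 3 and control 4, and Vmn2r90 has 0% in dnTCF4 1. The shortest list, dnTCF4 2, covers hardly any window.

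Among 20 developmental transcription factors on the chromosome, 6 were marked in some library, beside 19.3% of all chromosome 17 genes. Six3, a homeobox regulator of forebrain and eye (chr17:85613608-85626191), had its window covered to 9.37%, 0%, 62.3% and 29.8% in control 1 to 4 and to 33.8%, 0%, 14.6% and 4.25% in dnTCF4 1 to 4. Its neighbour Six2, a regulator of kidney progenitors, was marked in 2 control libraries and 1 dnTCF4 library. For neither Six3 nor Six2 did any library have a peak within 2 kb of a listed RefSeq start. Nkx2-5, the cardiac homeobox gene (chr17:26838664-26844988), had 100% of its window covered in control 3, 56.0% in control 4, 65.6% in dnTCF4 1, 11.4% in dnTCF4 3 and 11.6% in dnTCF4 4. Around it the regions chr17:26842723-26849381, chr17:26851589-26855299 and chr17:26817193-26826334 were each in 4 or 5 libraries. T, the mesoderm factor brachyury and a Wnt target, was covered to 98.6% in control 3, 19.6% in control 4, 29.1% in dnTCF4 1, 6.22% in dnTCF4 3 and 5.62% in dnTCF4 4. Peaks marked the hypoxia factor gene Epas1 in 2 libraries of each group and Sox8 in 1 of each. The 14 unmarked members included Runx2, Pou5f1, Satb1, Hmga1, Srf and Foxp4.

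Of 20 genes of developmental signalling, 3 were marked (15%, beside 19.3% of all chromosome 17 genes). These were Notch3, a Notch receptor, in 2 control libraries and 1 dnTCF4 library, Smoc2, a matricellular protein, in 2 of each, and Alk, a receptor tyrosine kinase, in 2 dnTCF4 libraries. Axin1, the scaffold of beta-catenin destruction, and Dll1, Vegfa, Daam2 and Ptk7 were not marked. Of 22 epithelial and secretory genes, 7 were marked. Epcam, an epithelial adhesion molecule (chr17:87635979-87651127), had its window covered to 5.47%, 0%, 70.4% and 37.2% in control 1 to 4 and to 69.5%, 0%, 23.3% and 0% in dnTCF4 1 to 4. Umodl1 was marked in 2 control and 3 dnTCF4 libraries. Tff2, a trefoil peptide, and Tmprss3, a transmembrane serine protease, were marked in 2 control libraries and 1 dnTCF4 library each. The claudins Cldn6 and Cldn9, Ezr and Ddr1 were unmarked.

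Of 18 genes of antigen presentation 9 were marked. They were the class II genes H2-Aa, H2-Ab1, H2-Eb1, H2-DMa, H2-DMb1, H2-Oa and H2-Ob, and the class I genes H2-Q4 and H2-Q7. H2-Ob, a chain of the class II modulator DO, was the only one of the 9 marked in 4 libraries. Its window was covered to 71.5% and 51.8% in control 3 and 4 and to 35.3% and 6.55% in dnTCF4 1 and 3. The classical class I genes H2-K1 and H2-D1, the peptide transporter genes Tap1 and Tap2, Tapbp and the immunoproteasome genes Psmb8 and Psmb9 were unmarked, as were H2-M3 and H2-T23. Counted by symbol after values were seen, 21 of 38 genes named H2 were marked (55.3%), against 19.3% of chromosome 17 genes. The 38 include genes such as H2-Q8 that the annotation places far from the complex (chr17:1642938-1675706) and that no library marked. Whether such positions hold for this build was not checked, and these genes are also counted among all chromosome 17 genes. Of 19 other immune genes 3 were marked, with Ccr6, a chemokine receptor, and Cd70, a ligand of the tumour necrosis factor family, in 2 libraries of each group.

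In the imprinted cluster 3 of 6 genes were marked, and the share over all chromosome 17 genes was 19.3%. Plg, plasminogen, and Mas1, a G protein-coupled receptor, were marked in 2 libraries of each group and Slc22a3, an organic cation transporter, in 2 control libraries and 1 dnTCF4 library. Igf2r itself and Slc22a2 were unmarked at their ends. Beside the same 19.3%, 6 of 18 neuronal and ion channel genes were marked (33.3%), led by Ttbk1 and by Grm4, a metabotropic glutamate receptor, in 2 libraries of each group. In the set of 12 genes of lens and metabolism 5 were marked (41.7%), among them Abcg8, a sterol transporter, in 2 of each group, and Cyp1b1, a cytochrome P450, in 2 control libraries and 1 dnTCF4 library.

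None of 12 genes for chromatin factors and Polycomb partners was marked at an end or inside the gene in any library. This list holds Ring1, a catalytic subunit of Polycomb repressive complex 1, Phf1, a partner of complex 2, the histone methyltransferase gene Ehmt2, Brd2, Daxx and Uhrf1. The same count, 0 of 20, was found for ribosomal and housekeeping genes such as Rps18, Rpl10a, Tbp and Hsp90ab1. All these counts stand beside 19.3% of chromosome 17 genes marked in any library. By share of members marked, the lists of developmental signalling (15%) and other immune genes (15.8%) were near it, as counts of small lists without a test. The median number of libraries marking a member was 0.5 for antigen presentation, 1.5 for the imprinted cluster and 0 for the other 8 lists, beside 0 over all chromosome 17 genes and over all genes. By symbol, again chosen after values were seen, 13 of 51 olfactory receptor genes (25.5%) and 4 of 46 vomeronasal receptor genes (8.7%) were marked. Neither family had a gene called in 2 or more control and also 2 or more dnTCF4 libraries. Over the whole chromosome this held for only 53 genes (5%), and the counts of 0 were not tested against that share. Reads from such gene families can fit several copies, so these counts are uncertain. The olfactory count also includes Olfr100, unmarked and placed by the annotation at chr17:80755-81681, a position that was not checked.

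Between the groups, none of the 6 measures of chromosome 17 differed beyond the spread of the libraries. Each was tested by a two-sided exact permutation test over the 70 assignments of 8 libraries to 2 groups of 4, whose smallest p is 0.0286, with Benjamini-Hochberg adjustment over the 6 tests. Chromosome 17 held 8.31% ± 3.34 (SD, n = 4) of the peaks in control and 8.73% ± 1.84 (SD, n = 4) in dnTCF4 libraries (exact p = 0.857, adjusted p = 0.943). Its share of covered length was 7.90% ± 2.23 in control and 8.04% ± 0.988 in dnTCF4 (SD, n = 4 each, exact p = 0.943, adjusted p = 0.943). Its share of marked genes was 7.19% ± 1.54 in control and 8.76% ± 1.10 in dnTCF4 (SD, n = 4 each, exact p = 0.171, adjusted p = 0.514), with single values from 5.85% to 9.38% and from 7.52% to 10.0%. The groups overlapped in each of these measures.

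The median width on chromosome 17 over that of the other chromosomes, as a log2 ratio, was 0.13 ± 0.13 in control and 0.06 ± 0.08 in dnTCF4 (SD, n = 4 each, exact p = 0.4, adjusted p = 0.8). The corresponding log2 ratio for fold enrichment was -0.0011 ± 0.011 in control and 0.029 ± 0.038 in dnTCF4 (SD, n = 4 each, exact p = 0.114, adjusted p = 0.514). Before the midpoint of the chromosome lay 40.1% ± 8.82 of its covered length in control and 43.4% ± 6.52 in dnTCF4 (SD, n = 4 each, exact p = 0.543, adjusted p = 0.814). A p above the threshold in groups of 4 does not show that these values are alike. Without the library control 2 the width difference moved from -0.07 to -0.13 with an exact p of 0.0286, the smallest that 3 against 4 libraries allow, unadjusted.

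**Figure D5:**
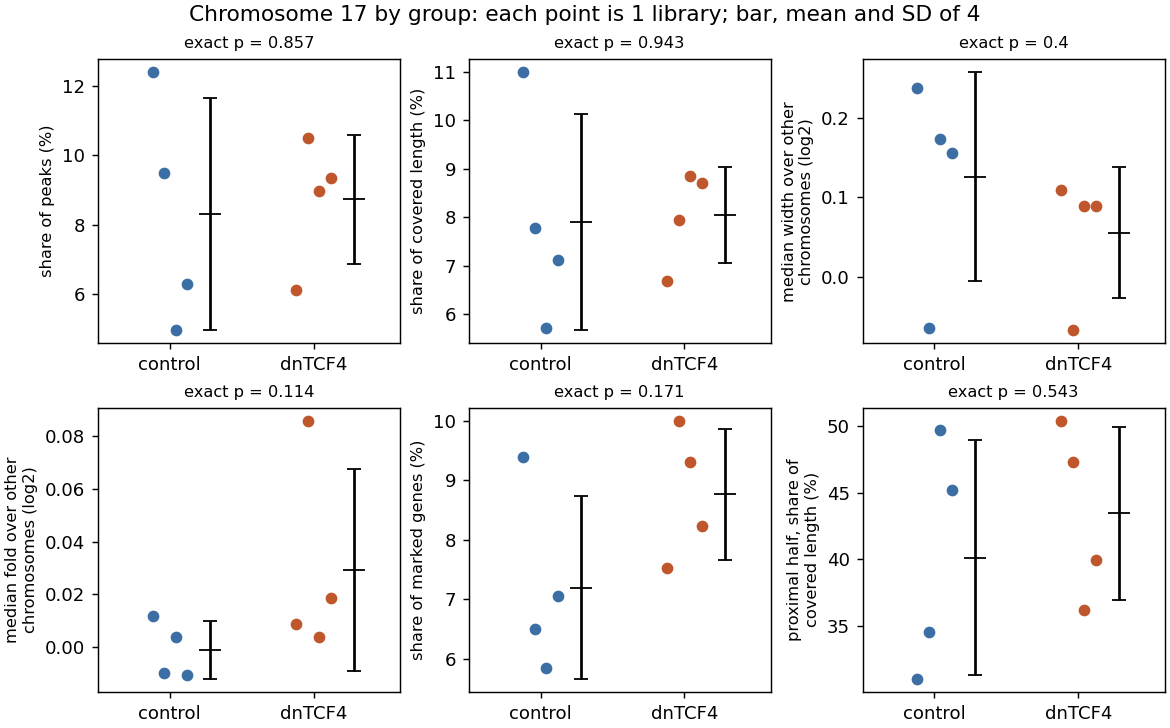
The 6 measures of chromosome 17 tested between groups, with a point for each library, the group mean as a line and the SD as a bar (n = 4 per group). Points of control and dnTCF4 libraries overlap in all 6 panels, as in the share of covered length (7.90% ± 2.23 against 8.04% ± 0.988).

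Single genes and regions could hardly pass a test in this design: with 4 against 4 libraries the smallest Fisher p is 0.0286 before adjustment, so the adjusted result says nothing on whether they differ. Fisher's exact test on the number of marked libraries, adjusted over all 21631 genes or all 61441 regions, called 0 genes and 0 regions on chromosome 17, and the lowest adjusted p was 1. At an unadjusted p under 0.05 the counts on chromosome 17 were also 0 and 0, against 0% of genes and 0.00163% of regions (1 region) over all chromosomes, with a lowest p of 0.429 for genes and 0.143 for regions. Marks in at least 2 control and 0 dnTCF4 libraries were found at 11 genes, 1.04% of chromosome 17 genes against 1.42% of all genes. All 11 had their peaks in control 3 and control 4, the 2 long lists of the control group. The reverse pattern held for 2 genes, Alk and Cryaa, 0.189% against 0.0601%. For regions the counts were 342 for control alone (11.1% against 9.84%), 336 of them in exactly control 3 and control 4, and 12 for dnTCF4 alone (0.388% against 0.216%), 11 of them with dnTCF4 1. These counts changed with single libraries. In control alone there were 0 genes and 4 regions without control 3, 0 and 6 without control 4, and 59 and 674 without dnTCF4 1. In dnTCF4 alone there were 5 genes and 50 regions without control 3, 0 and 1 without dnTCF4 1, and 0 and 4 without dnTCF4 3, while 7 regions were left without dnTCF4 4.

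Genes with the widest gap in marked libraries are given by their values. Alk (chr17:71868988-72604702) had 18.6% of its window covered in dnTCF4 1 and 25% in dnTCF4 3, with 0% in the other 6 libraries. Peaks lay inside the gene in 2 control and 3 dnTCF4 libraries, so the difference was in its end windows. No library had a peak within 2 kb of a listed RefSeq start of Alk. Cryaa, which encodes the lens protein alpha A crystallin, was covered to 30.4% in dnTCF4 1 and 4.45% in dnTCF4 3 and to 0% elsewhere. The end window of Zfp959 was covered to 13.8% in control 3, 7.35% in control 4 and 14.3%, 5.97%, 7.57% and 8.95% in dnTCF4 1 to 4. With windows of 1 kb its gap in marked libraries was 0. On the control side, Vmn2r90, a vomeronasal receptor gene, was covered to 73.3% in control 3 and 16.1% in control 4, and Clic5, an intracellular chloride channel gene, to 28.5% and 24.5%, with 0% in all dnTCF4 libraries. Inside each of these genes, though, 1 dnTCF4 library had a peak. Within 2 kb of a listed RefSeq start of Clic5, 1 dnTCF4 library and no control library had a peak. Olfr93, an olfactory receptor gene, was marked in 3 control libraries and in dnTCF4 1. The genes 4930488N24Rik, Vmn1r233 and Olfr1564 were marked in control 3 and control 4 alone.

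Of single regions, the one with the largest gap towards dnTCF4 lay inside Epcam at chr17:87641393-87642059. It was covered over 652 bp in control 3 and 0 bp in the other 3 control libraries, and over 618, 365, 619 and 267 bp in dnTCF4 1 to 4 (Fisher's exact test p = 0.143, adjusted p = 1). A neighbouring region in the same gene, chr17:87643242-87647006, was in 3 control and 4 dnTCF4 libraries, and chr17:87634139-87636313 over the start was in 3 and 2. The gene was therefore marked in both groups, and the gap concerned 1 short stretch. Regions in 3 control and 0 dnTCF4 libraries included those 29.5 kb from Tmem178 (chr17:80911873-80915169), 41.2 kb from Atl2 (chr17:79805283-79807174) and 232 kb from Fam98a (chr17:75783759-75784622). In the region near Tmem178, control 2, control 3 and control 4 covered 194, 3297 and 1609 bp. Towards dnTCF4, regions in 1 control and 3 dnTCF4 libraries lay inside Clip4 (chr17:71783217-71786448), inside Ttbk1 (chr17:46474619-46476450) and 47.1 kb from Foxp4 (chr17:47971689-47973525).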

How the data were processed

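H3K27me3 ChIP libraries were made by ChIPmentation, in which adapters are added on the beads by a transposase, from sheared fixed chromatin, per the labels' protocols. The submitters' processing notes name MACS2 2.1.2, Bowtie2 2.3.4.1, SAMtools 1.2, Picard 2.20.2 and bedtools 2.28.0 beside Trim Galore and cutadapt, and the build mm10. The options used, and whether IgG served as control, are not stated there. The deposited files hold 1 peak list per library with a display score, a fold enrichment and the −log10 of a p-value and q-value for each peak. No list has a header, and the columns were read by position. All peaks had a −log10 q-value of at least 1.01. Read depth is unknown, so no counting interval is given.

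Members and gene lists were chosen with earlier results of these data known. Peaks were merged over all libraries where they overlapped by 1 base or more. Genes were the 21631 protein-coding genes of a RefSeq table (GRCm38.p6, the build of mm10), with windows of 2 kb to each side of both ends because the table has no strand. The background of the peak caller was estimated by assuming its Poisson p-value and a pseudocount of 1. Group tests were exact permutation tests over 4 and 4 libraries, and Fisher's exact test for single genes and regions was fitted over all chromosomes and adjusted by Benjamini-Hochberg. Named were the 10 genes marked in most libraries, up to 6 genes per direction with a gap of at least 2 libraries, up to 4 marked members and the unmarked members of each list, the 6 widest and 6 most shared regions, up to 5 regions per direction, and the peak of highest fold per library, of which a few genes and 1 region are not reported here; further list members and the regions near Epcam and Nkx2-5 were named after their values were seen. Alternatives were a stricter q-value, lists of equal length, other windows, longer lists only, a block on the replicate number, each library left out, and, chosen after seeing the data, the block around the widest region left out. Scripts were tested on simulated data. Python 3.11.15, NumPy 2.4.6, pandas 2.3.3, SciPy 1.17.1 and Matplotlib 3.10.9 were used. Ncr3, Kcnk5, Kcnk16 and Kcnk17 were on the gene lists but were not found on chromosome 17 and were left out.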

Additional observations from a re-analysis of the deposited data

Results flagged for a closer look

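Of 12 groups of 4 libraries examined for a single value far from the others by Dixon's criterion, 1 stood out, and chance flags about 1 in 20 groups. The log2 ratio of the median peak width on chromosome 17 over that on the other chromosomes was -0.0678 in dnTCF4 2, against 0.109, 0.0896 and 0.0891 in dnTCF4 1, dnTCF4 3 and dnTCF4 4. This library lists 20 peaks on the chromosome, the fewest of the 8, and the part of that small number in the value was not tested.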

How the results depend on the processing

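Differences are dnTCF4 minus control. For the share of peaks (0.427 percentage points) the sign turned with a −log10 q of at least 5 (-0.75) and with lists of equal length (-0.131), and leaving out 1 library gave -0.677 to 1.81. The share of covered length (0.147) ran from -0.583 to 1.18 with 1 library left out. The width ratio (-0.071) turned with a −log10 q of at least 2 (0.168) or 5 (0.405) and with equal lengths (0.177), and leaving out 1 library gave -0.134 to -0.03. The fold ratio (0.0304) turned at the same q minimums (-0.0282 and -0.0311). The share of marked genes (1.57) turned at a −log10 q of at least 5 (-3.4) and with windows of 1 kb (-0.301). The share before the midpoint (3.33) turned at a −log10 q of at least 5 (-31.9) and over lists of at least 1000 peaks (-5.32). The cause of these turns was not tested. At a −log10 q of at least 5, only 5 libraries gave a width ratio, a fold ratio and a share before the midpoint. The setting of at least 1000 peaks also left 5 libraries. Over all these alternatives the exact p ran from 0.0286 to 1.

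Genes marked in control alone (11) became 7 at a −log10 q of at least 2, 17 with windows of 5 kb, 17 over whole gene bodies and 0 with equal lengths, and 0 to 59 with 1 library left out. Genes marked in dnTCF4 alone (2) became 1 with windows of 1 kb, 1 with 5 kb, 0 over gene bodies and 1 with equal lengths, and 0 to 5 with 1 library left out. Regions in control alone (342) became 52 at a −log10 q of at least 2 and 1 with equal lengths, and 4 to 674 with 1 library left out. Regions in dnTCF4 alone (12) became 6 and 2, and 1 to 50. For the 18 named genes, 58 of 90 combinations of gene and setting changed the gap in marked libraries.

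The correlation of same-numbered libraries ran from -0.797 to 0.487 and exceeded 0.1 in 2 of 4 pairs. Between libraries of unlike number it reached 0.873 (control 3 with dnTCF4 1, both long lists). Because the lists differ so much in length, these values cannot show whether same-numbered libraries were made as pairs. With the replicate block the differences were 0.427, 0.147, -0.071, 0.0304, 1.57 and 3.33. With 4 complete pairs the mean of the pair differences always equals the difference of the group means. These values therefore had to repeat those without the block and are no check on them. For these differences the block could change only the exact p, which ran from 0.125 to 0.875. The value 0.125 is the smallest that 4 pairs allow. With the block, 11 and 3 genes were marked in control alone and in dnTCF4 alone.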
